A study of Homo sapiens with 8 samples.

Results

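The HOX genes of the HOXA, HOXB, HOXC and HOXD clusters were examined in peak lists of H3K4me3, the trimethylation of histone H3 at lysine 4 that marks active promoters. Members were the protein-coding genes of the GENCODE annotation named for one of the 4 clusters and a number, and 38 of them are described here out of 20033 protein-coding genes. The cells were U2OS, a human osteosarcoma line, as 3 wild-type (WT) clones and 3 knockout (KO) clones lacking ZBTB48, whose zinc fingers bind telomeric repeats and some gene promoters. Each clone gave 1 ChIP-seq library. Every clone, WT and KO alike, had been treated with interferon gamma (IFNγ) at 250 U/ml over 24 h, so no untreated state could be compared. The 2 WT input libraries that make up the 8 samples were not used here.

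HOX genes encode homeodomain transcription factors that give cells their position along the body axis. Within a cluster the genes are transcribed in the same direction and are numbered by paralogous group, low numbers being used towards the head and high numbers towards the trunk, limbs and urogenital tract, in the order in which they lie on the chromosome. Cells in culture often keep part of the HOX pattern of the tissue they came from. Trithorax proteins, among them the H3K4 methyltransferases KMT2A and KMT2B, maintain active HOX genes, and Polycomb proteins keep the others silent.

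The lists held 21712 to 26370 peaks each, and at most 2 peaks were identical between any pair of them. They differed in kind. WT replicates 1 and 2 had a median peak width of 2297 and 2353 bp and a median fold enrichment, as the authors' peak caller gave it, of 13.4 and 14. In WT replicate 3 the median width was 1487 bp and the median fold enrichment 4.19, near the 1275 to 1388 bp and 4.32 to 4.65 of the KO lists. Values of WT replicate 3 beside the 3 KO libraries are therefore given with each genotype comparison, as a description chosen after seeing the data. The lists carry no read counts, so depth is unknown and a missing peak means that none was called at that library's threshold. The osteoblast-lineage markers RUNX2, COL1A1 and SPARC carried a peak inside the 3 kb window around the 5′ end in all 6 libraries, while SP7, COL1A2, ALPL and BGLAP had none there in any. Near another annotated 5′ end SP7 had a peak in 6 libraries and ALPL in 4, and COL1A2 and BGLAP in none. Of 7 markers of other lineages only MYOD1, the muscle determination factor, carried a peak, also in all 6. Peaks cannot show whether ZBTB48 was lost, and the knockout was taken from the labels.

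Promoter sequences are shown for genes at opposite ends of the pattern described below. Entries of the RefSeq promoter table (GRCh38.p14) matched 20 of the 38 members, and for 17 of these the RefSeq start was the MANE Select 5′ end used throughout. HOXA5, HOXB2 to HOXB9, HOXB13, HOXC6, HOXC8 to HOXC13 and HOXD9 were not matched. Each sequence runs 5′ to 3′ from 250 bases before to 50 bases after a start, and capitals mark CG dinucleotides. HOXA13 and HOXD8 had a peak over the 5′ end in every library, whereas HOXA2, HOXB1, HOXD4 and HOXD13 had no peak within 3 kb in any. The window at the upstream HOXA10 start lay under a peak only in WT replicates 1 and 2, and that at the upstream start shared by HOXC4 and HOXC5 lay in a stretch marked in every library. The last 3 of the 8 were chosen after their values were seen.
HOXA13, chr7:27200042-27200341, minus strand: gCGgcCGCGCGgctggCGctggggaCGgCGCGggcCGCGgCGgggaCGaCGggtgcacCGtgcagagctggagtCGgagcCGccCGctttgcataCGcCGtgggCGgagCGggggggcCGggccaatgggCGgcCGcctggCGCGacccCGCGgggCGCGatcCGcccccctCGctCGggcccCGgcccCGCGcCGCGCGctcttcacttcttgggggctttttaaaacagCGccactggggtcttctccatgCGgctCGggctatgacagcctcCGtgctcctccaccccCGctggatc
HOXA2, chr7:27102634-27102933, minus strand: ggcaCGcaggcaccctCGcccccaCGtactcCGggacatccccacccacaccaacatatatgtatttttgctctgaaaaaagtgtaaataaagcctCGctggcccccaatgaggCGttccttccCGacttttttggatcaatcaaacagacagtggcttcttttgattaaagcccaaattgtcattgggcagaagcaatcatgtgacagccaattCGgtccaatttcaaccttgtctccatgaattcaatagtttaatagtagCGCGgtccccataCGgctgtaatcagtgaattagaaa
HOXB1, chr17:48530962-48531261, minus strand: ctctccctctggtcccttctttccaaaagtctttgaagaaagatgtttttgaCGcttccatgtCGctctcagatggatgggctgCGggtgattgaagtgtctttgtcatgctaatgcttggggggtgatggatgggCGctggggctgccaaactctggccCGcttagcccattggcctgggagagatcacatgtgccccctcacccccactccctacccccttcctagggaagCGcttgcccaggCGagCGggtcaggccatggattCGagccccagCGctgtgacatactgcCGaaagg
HOXD8, chr2:176129455-176129754, plus strand: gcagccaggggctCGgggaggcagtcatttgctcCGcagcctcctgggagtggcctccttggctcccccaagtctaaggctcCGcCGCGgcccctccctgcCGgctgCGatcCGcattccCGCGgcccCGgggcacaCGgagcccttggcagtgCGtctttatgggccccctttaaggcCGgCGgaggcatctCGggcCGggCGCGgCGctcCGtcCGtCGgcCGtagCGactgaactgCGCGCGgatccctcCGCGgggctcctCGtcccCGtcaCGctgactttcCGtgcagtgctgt
HOXD4, chr2:176151300-176151599, plus strand: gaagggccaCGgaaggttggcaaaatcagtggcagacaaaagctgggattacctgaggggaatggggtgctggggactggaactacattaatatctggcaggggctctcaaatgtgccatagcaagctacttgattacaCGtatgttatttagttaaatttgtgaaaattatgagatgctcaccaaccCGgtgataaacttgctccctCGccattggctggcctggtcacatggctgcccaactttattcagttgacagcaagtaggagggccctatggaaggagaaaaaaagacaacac
HOXA10 upstream start, chr7:27179812-27180111, minus strand: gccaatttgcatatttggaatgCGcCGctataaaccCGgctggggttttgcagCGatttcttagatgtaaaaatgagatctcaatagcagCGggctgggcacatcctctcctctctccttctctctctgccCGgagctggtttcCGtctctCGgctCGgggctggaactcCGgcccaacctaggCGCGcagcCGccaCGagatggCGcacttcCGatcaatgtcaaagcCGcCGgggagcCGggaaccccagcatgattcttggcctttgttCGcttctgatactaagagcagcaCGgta
HOXC4 and HOXC5 upstream start, chr12:54016638-54016937, plus strand: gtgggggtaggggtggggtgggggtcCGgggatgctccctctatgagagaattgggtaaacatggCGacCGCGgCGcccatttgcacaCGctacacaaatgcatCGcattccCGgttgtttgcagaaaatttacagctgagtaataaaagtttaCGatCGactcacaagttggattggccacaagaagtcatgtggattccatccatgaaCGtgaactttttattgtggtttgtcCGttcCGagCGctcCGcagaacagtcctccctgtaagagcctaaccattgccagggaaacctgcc
HOXD13, chr2:176092471-176092770, plus strand: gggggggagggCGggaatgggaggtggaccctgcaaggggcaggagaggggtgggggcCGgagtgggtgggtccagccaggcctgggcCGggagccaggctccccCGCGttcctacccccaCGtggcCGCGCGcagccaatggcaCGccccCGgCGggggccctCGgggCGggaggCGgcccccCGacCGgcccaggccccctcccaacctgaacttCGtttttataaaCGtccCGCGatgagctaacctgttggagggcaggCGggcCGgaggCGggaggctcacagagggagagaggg

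The HOXA13 window held 44 CG dinucleotides and the HOXD8 window 34, against 11 in HOXA2, 11 in HOXB1 and 4 in HOXD4. HOXD13 was bare with 24, more than the 13 at HOXA11, whose 5′ end was covered in all 6 libraries. Among the 17 members with a RefSeq start at the MANE Select 5′ end, the 11 marked genes had a median of 27 (13 to 44) and the 5 bare genes a median of 11 (4 to 25). The median over all 35116 promoters of the table was 14. CG-rich and CG-poor windows thus occurred among the bare HOX genes, and the ranges overlapped. The telomeric repeat unit TTAGGG, searched on both strands, was in 0 of the 17 windows and in 9.05% of all promoters of the table. The absence concerns these letters in these windows and nothing else.

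To ask which HOX genes carried the mark, a gene was called marked when a peak of each of the 6 libraries reached into the window of 3 kb on either side of its 5′ end, bare when no library had one, and mixed otherwise. By this rule 26 of the 38 genes were marked (68.4%), where 66.9% of all 20033 protein-coding promoters were. Bare genes numbered 7 (18.4%, against 28% of all promoters), and mixed genes 5 (13.2%, against 5.11%). The 5′ end itself lay under a peak in all 6 libraries for 19 members (50%), against 61.3% of all promoters. HOX genes were thus marked about as often as other promoters by the wide window, and the peak stood beside the 5′ end in 6 marked genes in every library. These shares describe the lists and were not tested. Expression was not examined here, so marked and bare are not read as active and silent.

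**Figure D1:**
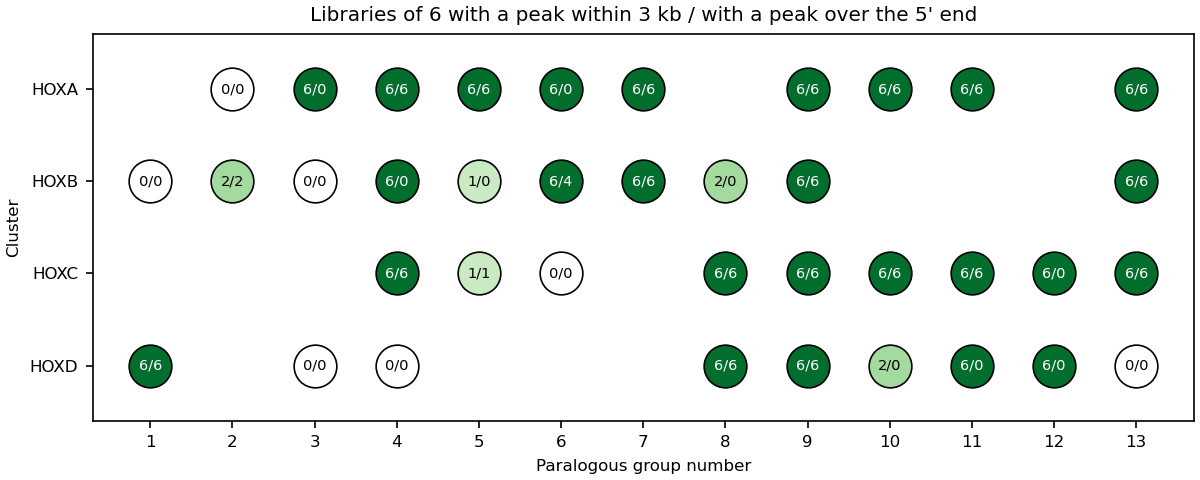
HOX members by paralogous group (horizontal axis) and cluster (vertical axis). Each circle gives the number of the 6 libraries with a peak within 3 kb, then the number with a peak over the 5′ end, darker green standing for more libraries by the first number. Groups 7, 9, 11 and 12 were marked in every member, and bare genes (0/0) lay in groups 1 to 4, 6 and 13.

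The paralogous groups did not share one state. The 4 members of group 9 (HOXA9, HOXB9, HOXC9 and HOXD9), which act in trunk and limb and, for HOXA9, in blood progenitors, were marked with the 5′ end covered in all 6 libraries. Group 7 was covered in the same way in both members. In group 13, which patterns digits and the urogenital tract, HOXA13, HOXB13 and HOXC13 were covered in every library while HOXD13 was bare. Of the 11 members of groups 1 to 4, 5 were marked, and only HOXA4, HOXC4 and HOXD1 of these had the 5′ end under a peak. Bare genes of these groups were HOXA2, HOXB1, HOXB3, HOXD3 and HOXD4.

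The HOXA cluster on chromosome 7 was the most evenly marked, with 9 of its 10 listed genes marked and HOXA2 alone bare. HOXA10, needed for the patterning of the uterus, had the largest mean covered length over the 6 libraries, with 4605, 4924 and 3819 bp under peaks within the 6 kb-wide window in WT replicates 1, 2 and 3 and 2583, 2782 and 1930 bp in KO replicates 1, 2 and 3. All WT values lay above all KO values. HOXA9, a blood progenitor factor, had 4807, 3272 and 2132 bp in WT and 1885, 1866 and 1745 bp in KO, again without overlap. HOXA13, a factor of the distal limb, had 4980, 3966 and 2073 bp in WT and 2491, 3870 and 1763 bp in KO. Its groups overlapped, since WT replicate 3 lay below KO replicates 1 and 2. HOXA5, which acts in lung development, stood over a compact peak of 1505 to 2660 bp in the 6 libraries. HOXA4, HOXA7 and HOXA11, the last needed for forearm and uterus, were also covered over the 5′ end in every library, by 1615 to 3009, 1398 to 3671 and 1888 to 4118 bp, and at each the genotypes overlapped.

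HOXA2, a hindbrain and branchial arch factor, was bare at both of its annotated 5′ ends, and the nearest peak began 3552 to 5034 bp downstream. HOXA3 and HOXA6 were marked without a peak over the 5′ end. Both 5′ ends flanked the region chr7:27148849-27152224, called in all 6 libraries, from which HOXA3 lay 359 to 1113 bp and HOXA6 1075 to 2342 bp away. The 3 kb window of HOXA3 also took in part of the peak over HOXA7 in 5 of the 6 libraries, KO replicate 3 being the exception. A peak at the HOXA2 edge ran out of the cluster span and counted only as far as the span reached.

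The HOXB cluster on chromosome 17 held marked genes in its middle and at HOXB13, which lies apart from the rest. HOXB4, HOXB6, HOXB7, HOXB9 and HOXB13 were marked, HOXB1 and HOXB3 bare, and HOXB2, HOXB5 and HOXB8 mixed. HOXB6 had 3945, 3736 and 3009 bp in WT replicates 1, 2 and 3 and 3002, 2950 and 2883 bp in KO replicates 1, 2 and 3. The genotypes were separated at HOXB6 by 7 bp, and its 5′ end was under a peak in the 3 WT libraries and KO replicate 1, with the peak edge 51 and 118 bp away in the other KO libraries. HOXB4, known for its use in expanding blood stem cells, had a narrow peak of 970 to 1390 bp that started 677 to 980 bp inside the gene, with overlapping genotypes. At HOXB13, a prostate factor, the covered length was 2985, 4414 and 1959 bp in WT and 1925, 1577 and 1625 bp in KO, all WT values above all KO values by at least 34 bp. HOXB7 had 2053 to 3866 bp, again with WT above KO throughout, whereas HOXB9, with 1966 to 4243 bp, overlapped between genotypes.

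HOXB1, which specifies a segment of the hindbrain, was the most isolated bare gene of the cluster. Its nearest peak lay 8552 and 9496 bp upstream in WT replicates 1 and 2 and at least 32319 bp upstream in the other 4 libraries. HOXB3 was bare at the MANE Select 5′ end but carried one near (3 kb) another of its 12 annotated 5′ ends in all 6 libraries. The same held for HOXC6 and HOXD3. Counting any annotated 5′ end, 30 to 32 HOX genes were called per library, and HOXA2, HOXB1, HOXD4 and HOXD13 stayed at 0 in all libraries. The same count over all protein-coding genes was not made, so these numbers are not read as particular to HOX genes.

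The HOXC cluster on chromosome 12 was covered over all its high-numbered genes except HOXC12. HOXC9, which sets the thoracic identity of motor neurons, had 4956, 4752 and 2356 bp in WT replicates 1, 2 and 3 and 1941, 1815 and 1917 bp in KO replicates 1, 2 and 3. The 2 broad WT lists lay far above the rest, and WT replicate 3 was 415 bp above the highest KO value. The single peak over HOXC9 was 8489 bp wide in WT replicate 1 and 7817 bp wide in WT replicate 2, the widest peak of any HOX cluster in those lists, at the 99.0th percentile of width in both. HOXC13, a hair and nail factor, had 4149, 4303 and 2685 bp in WT and 3473, 2602 and 2531 bp in KO, with KO replicate 1 above WT replicate 3. HOXC4 was covered at its MANE Select 5′ end by 1876 to 3115 bp, all WT values above all KO values. HOXC8, HOXC10 and HOXC11, covered by 1114 to 3457, 2600 to 4243 and 2107 to 4345 bp, overlapped between genotypes.

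HOXC12 was the least covered marked HOX gene. It had 436, 279 and 1045 bp in WT and 558, 294 and 442 bp in KO, from a peak 910 to 1568 bp upstream of the 5′ end. WT replicate 3 was the highest of the 6 here and WT replicate 2 the lowest. HOXC6, which acts in the thoracic region, was bare at its MANE Select 5′ end. The stretch chr12:54015585-54022246, which holds annotated 5′ ends of HOXC4 and HOXC6 and the shared upstream start printed above, was called in all 6 libraries with 6662, 5808 and 3729 bp in WT and 3982, 3731 and 3825 bp in KO. WT replicate 3 was the lowest of the 6 there.

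In the HOXD cluster on chromosome 2 the 5′ ends of HOXD8, HOXD9 and HOXD1 were under a peak in all 6 libraries, and the ends of the cluster differed. HOXD8 had 3116, 4443 and 2157 bp in WT replicates 1, 2 and 3 and 1904, 1876 and 1691 bp in KO replicates 1, 2 and 3, without overlap. HOXD9 had 3110, 3091 and 2096 bp in WT and 2855, 1936 and 1738 bp in KO, KO replicate 1 exceeding WT replicate 3 by 759 bp. HOXD1, which acts in pain-sensing neurons, had 2851, 3078 and 1767 bp in WT and 1720, 1544 and 1540 bp in KO, all WT values higher. HOXD13, HOXD4 and HOXD3 were bare. The longest stretch of the cluster without a peak in any library, 23.1 kb at chr2:176141448-176164505, held the 5′ ends of HOXD3 and HOXD4.

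HOXD11 and HOXD12, genes of the forearm and digits, were marked through peaks upstream of the MANE Select 5′ end. The region chr2:176096300-176098142 lay past the 3′ end of HOXD13 and 1653 to 2421 bp upstream of HOXD12, and chr2:176103341-176105244 lay 2036 to 2617 bp upstream of the MANE Select 5′ end of HOXD11, over the start of the annotated gene and another of its annotated 5′ ends. Both regions were called in all 6 libraries. HOXD13, whose loss of function disturbs the digits, had its nearest peak 3579 to 3841 bp downstream of the 5′ end, beyond the 3 kb limit in all 6 libraries, whereas HOXD11 lay inside that limit by a similar margin. A wider or narrower window would thus move these genes between classes.

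**Figure D2:**
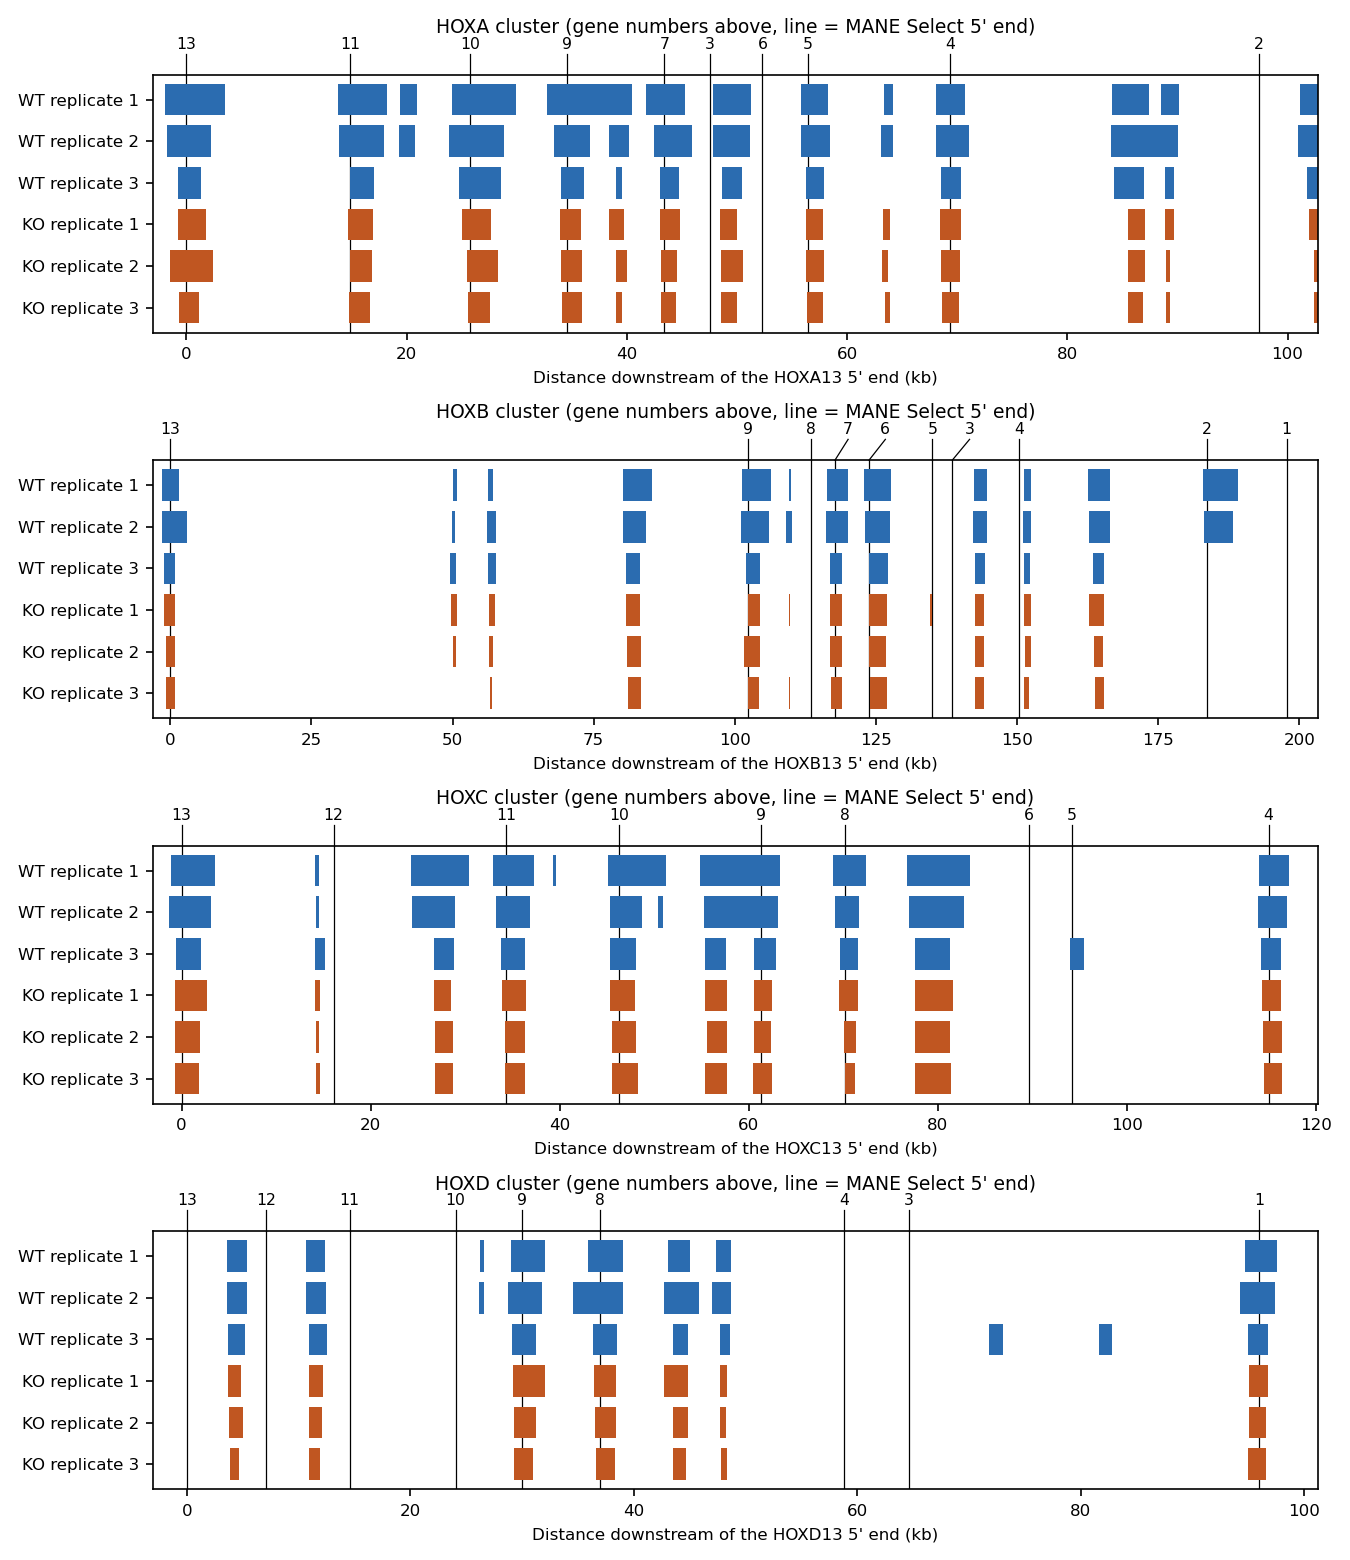
Peaks along the 4 HOX clusters, drawn in the direction of transcription as kb downstream of the 5′ end of the group 13 gene, with 1 row per library (blue WT, orange KO, bars are peaks). Black lines mark the MANE Select 5′ ends with the gene numbers above them. Peaks stood at the same places in most libraries, and the HOXB2 peak in WT replicates 1 and 2 and the HOXC5 peak in WT replicate 3 had no counterpart in the other lists.

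The 5 mixed genes did not follow the genotype. HOXB2, a hindbrain factor, had 3642 and 3500 bp in WT replicates 1 and 2 and 0 bp in WT replicate 3 and in all KO libraries. The peak behind it, in the region chr17:48539563-48545750, was 6188 and 5102 bp wide, with a fold enrichment of 9.43 and 9.25 and a −log10 q of 43.0 and 43.97. HOXD10, a factor of lumbar motor neurons and hindlimb, had 398 and 475 bp in the same pair of libraries, from a peak with a −log10 q of 3.63 and 4.36. HOXB8 had 178 and 311 bp there, where the edge of the HOXB7 peak reached into its window.

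HOXC5 had 1511 bp in WT replicate 3 and 0 bp in the other 5 libraries. Its peak covered the 5′ end, with a fold enrichment of 4.54 and a −log10 q of 17.6. HOXB5 had 321 bp in KO replicate 1, with a fold enrichment of 5.40 and a −log10 q of 10.2, and 0 bp elsewhere. No gene of the 5 was called in all libraries of one genotype and none of the other. With 1 library per clone, a difference between clones and one between libraries cannot be told apart.

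Many HOX peaks stood away from the MANE Select 5′ ends. Merging the 6 lists gave 45 regions lying wholly within the 4 spans, of which 34 had a peak of each of the 6 libraries and 5 a peak of 1 library. A MANE Select 5′ end of a member lay inside 22 regions, and 16 regions were farther than 3 kb from every such end. Of these, 9 were called in all 6 libraries. One was the region chr7:27109988-27116161 inside HOXA3, which holds other annotated 5′ ends of HOXA3 and of the antisense RNA gene HOXA-AS2, with 4998, 6134 and 3538 bp in WT and 2362, 1961 and 1636 bp in KO.

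Similar regions stood in the other clusters. In HOXB, chr17:48643502-48648636, between HOXB9 and HOXB13 at the long noncoding RNA genes LINC02086 and LINC03057, was called with 5135, 4141 and 2475 bp in WT and 2427, 2606 and 2400 bp in KO. In HOXC, chr12:53963090-53969252 lay between HOXC12 and HOXC11 at annotated 5′ ends of HOTAIR, a long noncoding RNA that binds chromatin regulators. It had 6163, 4538 and 2147 bp in WT and 1847, 1827 and 1988 bp in KO. In HOXD, chr2:176135373-176138570, at annotated 5′ ends of HOXD3 and of HOXD-AS2, was called in all 6. The longest stretch without any peak, 46.7 kb, began inside HOXB13, ran towards HOXB9 and held no member 5′ end.

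HOX peaks were somewhat wider than the typical peak of their list. The median width of the 40 to 43 peaks per list that reached into the spans was 3116, 3272 and 1980 bp in WT replicates 1, 2 and 3 and 1902, 1795 and 1658 bp in KO replicates 1, 2 and 3, and their median stood at the 67.5th to 73.8th percentile of width in their lists. By fold enrichment within a list, the median HOX peak stood at the 57.0th and 58.1st percentile in WT replicates 1 and 2 and at the 37.3rd to 39.7th in the other 4. Around the 5′ ends, marked HOX genes were close to other marked promoters. Their median covered length was 3455, 3405 and 2085 bp in WT and 1923, 1871 and 1715 bp in KO, and the median over all 13399 promoters marked in all 6 was 3330, 3259, 1979, 1940, 1769 and 1670 bp in the same order.

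The marked HOX genes spread widely among those promoters. By mean covered length over the 6 libraries, HOXA10 stood at the 91.5th percentile, HOXC13 at the 88.2nd, HOXB6 at the 87.3rd and HOXA13 at the 85.7th. HOXC12, HOXD11, HOXD12, HOXB4 and HOXA6 stood at or below the 4.59th percentile, and in each of these the peak lay beside the 5′ end. The median HOX gene was at the 57.2nd percentile.

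RNA genes of the clusters were counted next, from a list of 24 long noncoding RNA and miRNA genes, many of which share a peak with a HOX gene. By their own 5′ ends 17 were marked, 3 mixed and 4 bare. HOTTIP, transcribed next to HOXA13, had 3227, 3009 and 1980 bp in WT and 1999, 2710 and 1763 bp in KO. HOXB-AS1 had 4400 and 4258 bp in WT replicates 1 and 2 and 0 bp elsewhere, under the same peak as HOXB2. HAGLROS, in the HOXD cluster, had 780 bp in WT replicate 3 alone. The widest cover of the list was at HOXC-AS2, beside HOXC9, with 6001, 5690 and 2693 bp in WT and 2724, 2471 and 2724 bp in KO. Here 6001 bp is the whole window.

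Of the miRNA genes of the clusters some were marked, some bare and one mixed. Mature sequences are printed because miRNAs with an identical seed came from marked and from bare loci, and capitals mark the seed (bases 2 to 8). Marked and bare refer here to the 5′ end of the annotated miRNA gene, which need not be the promoter it is transcribed from. All are RefSeq entries on GRCh38.p14.
miR-196a-5p, chr12:53991762-53991783 from MIR196A2 (marked) and chr17:48632532-48632553 from MIR196A1 (bare): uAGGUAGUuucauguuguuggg
miR-196b-5p, chr7:27169528-27169549 from MIR196B (marked): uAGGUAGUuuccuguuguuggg
miR-10a-5p, chr17:48579904-48579926 from MIR10A (marked): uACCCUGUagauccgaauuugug
miR-615-3p, chr12:54034010-54034031 from MIR615 (mixed): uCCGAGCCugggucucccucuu

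The miR-196 miRNAs, which target HOX transcripts, share the seed AGGUAGU and come from HOXA, HOXB and HOXC. Within 3 kb of its 5′ end, MIR196B, between HOXA9 and HOXA10, had 3184, 1477 and 1017 bp in WT replicates 1, 2 and 3 and 105, 781 and 9 bp in KO replicates 1, 2 and 3. MIR196A2, between HOXC9 and HOXC10, had 2471, 1175 and 519 bp in WT and 520, 343 and 491 bp in KO, while MIR196A1 had 0 bp in all 6. WT and KO did not overlap at MIR196B, and at MIR196A2 they met at WT replicate 3 and KO replicate 1. MIR10A, upstream of HOXB4, had 424 to 727 bp, and MIR10B, at HOXD4, 0 bp in all 6. MIR615, inside HOXC5, followed HOXC5 with 1511 bp in WT replicate 3 alone.

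To learn whether HOX genes differed in the mark without ZBTB48, covered lengths were compared between genotypes. HOX genes called per library numbered 29, 29 and 27 in WT replicates 1, 2 and 3 and 27, 26 and 26 in KO replicates 1, 2 and 3. WT replicate 3 and KO replicate 1 were equal, and the means were 28.3 ± 1.15 (SD, n = 3) and 26.3 ± 0.577 (SD, n = 3; two-sided exact permutation p = 0.2, adjusted p = 0.2). The mean covered length over the 38 genes was 2336, 2310 and 1430 bp in WT and 1336, 1278 and 1110 bp in KO. All WT values were higher, with means of 2026 ± 516 and 1241 ± 118 bp (SD, n = 3), a difference of 784 bp (exact permutation p = 0.1, adjusted p = 0.16). At 3 against 3 no p under 0.1 is possible, so no comparison here could pass 0.05. The value of WT replicate 3 was 189 bp above the KO mean.

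Along the clusters the same order held. The 4 spans together had 142, 134 and 81.1 kb under peaks in WT and 76.3, 68.9 and 61.7 kb in KO (exact permutation p = 0.1, adjusted p = 0.16). WT replicate 3 was 12.2 kb above the KO mean, where the 3 WT libraries together were 50.1 kb above it. Since the WT lists 1 and 2 were broader throughout, each list was also scaled by its own total, which need not remove that difference. As a share of all bp under peaks, the spans held 0.253, 0.240 and 0.215% in WT and 0.198, 0.223 and 0.212% in KO. KO replicate 2 lay above WT replicate 3, and the means of 0.236 ± 0.0195 and 0.211 ± 0.0128% (SD, n = 3) gave an exact permutation p of 0.2 (adjusted p = 0.2). WT replicate 3 exceeded the KO mean by 0.00419 percentage points.

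The ratio of WT to KO mean was 1.84 for HOXA, 1.76 for HOXB, 1.63 for HOXC and 1.66 for HOXD. HOXA had 44.6, 40.9 and 22.3 kb under peaks in WT and 21.3, 21.2 and 16.1 kb in KO (exact permutation p = 0.1, adjusted p = 0.16). HOXC had 43.9, 36.0 and 25.0 kb in WT and 23.1, 20.4 and 20.9 kb in KO (exact permutation p = 0.1, adjusted p = 0.16). HOXB, at 37.4, 37.4 and 20.0 kb in WT and 20.1, 17.6 and 16.1 kb in KO, was the one cluster in which WT replicate 3 fell below KO replicate 1 (exact permutation p = 0.2, adjusted p = 0.2). That overlap rested on the HOXB5 peak, called in KO replicate 1 alone, which made up 0.321 kb of its HOXB value. Without it KO replicate 1 had 19.77 kb, below the 19.96 kb of WT replicate 3. In HOXA and HOXC the separation rested on 1.01 and 1.85 kb between WT replicate 3 and KO replicate 1.

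HOXD had 16.3, 19.6 and 13.9 kb in WT and 11.8, 9.64 and 8.49 kb in KO (exact permutation p = 0.1, adjusted p = 0.16). For WT replicate 3 against the KO mean the ratio was 1.39 in HOXD, above the 1.11 to 1.16 of the other clusters. A pair of regions between the 5′ ends of HOXD3 and HOXD1, chr2:176164506-176165731 and chr2:176174335-176175496, was called in WT replicate 3 alone and made up 2.39 kb of its HOXD value. Without them WT replicate 3 had 11.5 kb, below the 11.8 kb of KO replicate 1. In HOXC the HOXC5 peak made up 1.51 kb of the value of WT replicate 3, which without it was 23.5 kb and still above the 23.1 kb of KO replicate 1.

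**Figure D3:**
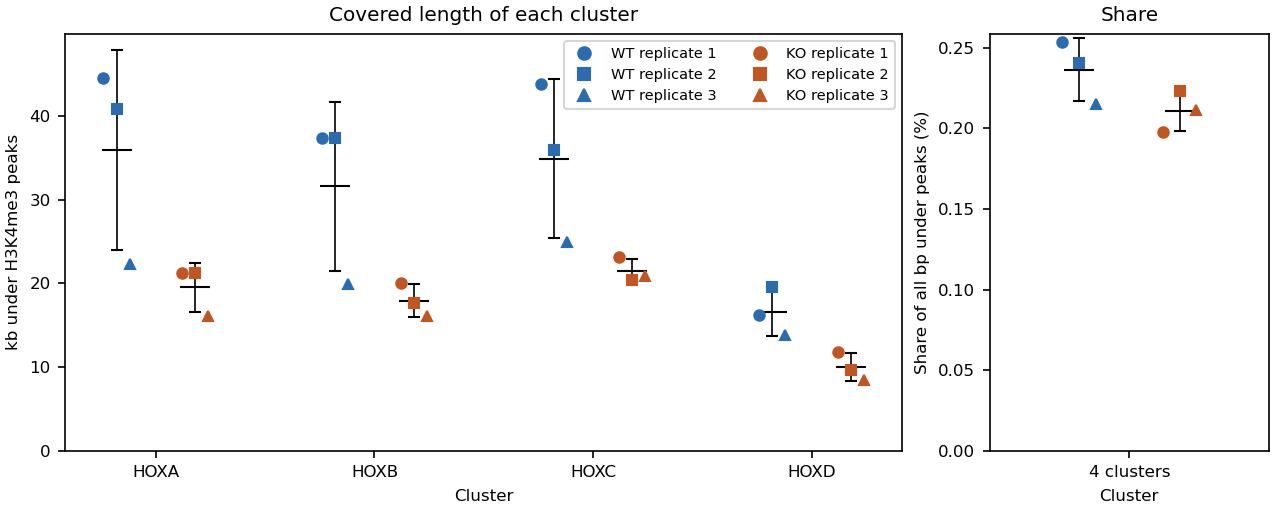
Left, kb under H3K4me3 peaks in each HOX cluster span; right, the share of all bp under peaks that lay in the 4 spans (%). Points are libraries (blue WT, orange KO; circle, square and triangle for replicates 1, 2 and 3), and black bars are the mean with the SD (n = 3). WT replicate 3, at 22.3, 20.0 and 25.0 kb, lay nearer to the KO libraries than to the other WT libraries in HOXA, HOXB and HOXC, and at 13.9 kb in HOXD it lay between WT replicate 1 (16.3 kb) and KO replicate 1 (11.8 kb).

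At single genes, every WT library covered more of the window than every KO library in 13 of the 31 HOX genes with a peak in at least 1 library (41.9%), where 50.8% of the 14422 protein-coding promoters so covered did. These 13 were HOXA3, HOXA5, HOXA9, HOXA10, HOXB6, HOXB7, HOXB13, HOXC4, HOXC9, HOXD1, HOXD8, HOXD11 and HOXD12. Every KO library exceeded every WT library in 0 of the 31, against 0.111% of those promoters. Higher covered length in WT was thus found at promoters in general. The share among HOX genes lay below that background, a difference that was not tested. All 13 separated genes were among the 26 marked. Mixed genes, none of them separated, made up 13.2% of the members against 5.11% of all promoters. The background share over marked promoters alone was not computed, so the lower share is not read as particular to HOX genes. Without WT replicate 3, 27 HOX genes were separated, and without KO replicate 1, 21 were. No share over all promoters was computed for these reduced sets, so the counts are not read as particular to HOX genes. WT replicates 1 and 2 both exceeded WT replicate 3 at 27 members, that is, within the WT genotype. The medians of WT replicates 1 and 2 over all 13399 promoters marked in every library were 3330 and 3259 bp. In WT replicate 3 that median was 1979 bp. The share of all promoters with this order was not computed, so this count is not read as particular to HOX genes either.

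WT replicate 3 exceeded every KO library in 15 of the 28 HOX genes covered in at least 1 of these 4 lists (53.6%, against 54.4% of 14281 promoters). The largest such lead of a marked gene was 1037 bp at HOXA10, followed by 487 bp at HOXC12 and 415 bp at HOXC9. At the other extreme, WT replicate 3 was 1797 bp below the highest KO library at HOXA13, 788 bp below at HOXC13 and 759 bp below at HOXD9. The median lead over the 26 marked HOX genes was 20.5 bp, and over all promoters marked in all 6 it was 19 bp. KO replicate 3 was the lowest of the 6 libraries at 20 of the 26 marked genes and KO replicate 1 at 1, so that the KO libraries also differed among themselves. KO replicate 3 likewise had the shortest median over all promoters marked in all 6, at 1670 bp against 1940 and 1769 bp in KO replicates 1 and 2. The share of promoters at which it was lowest was not computed.

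**Figure D4:**
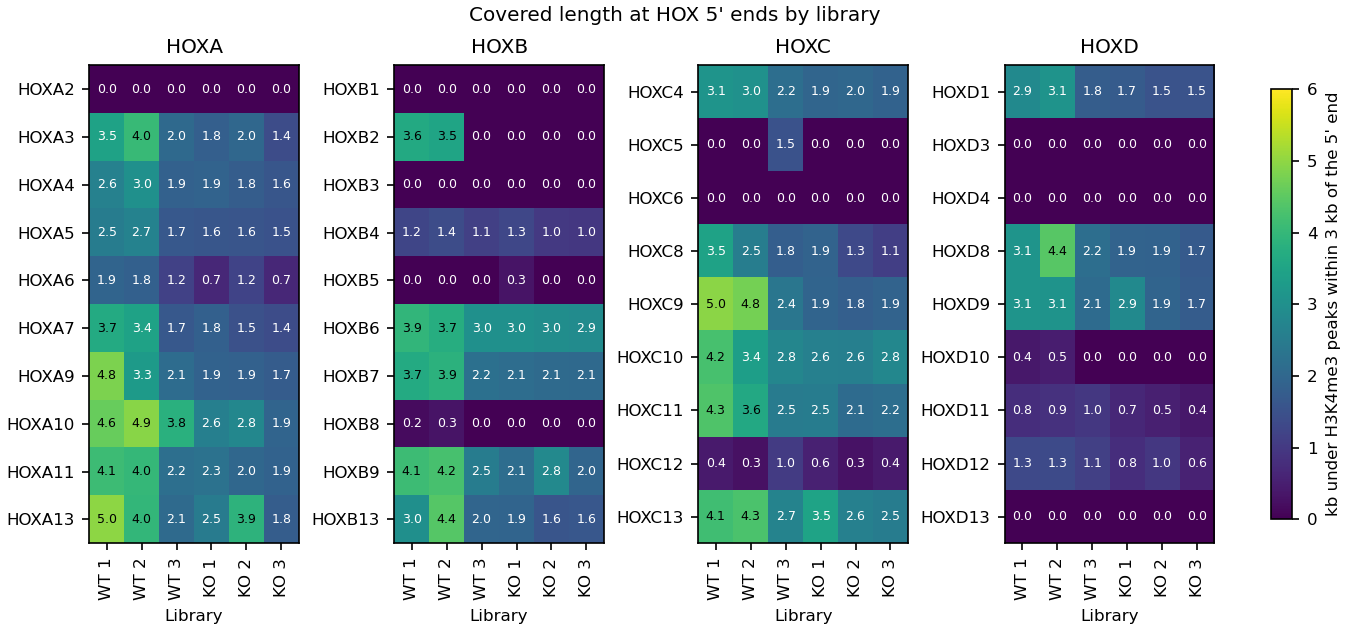
Covered length (kb under peaks within 3 kb of the 5′ end, colour and printed number) of each HOX gene (rows) in each library (columns), by cluster. The 2 left columns of each panel, WT replicates 1 and 2, were higher at most marked genes, and the third WT column resembled the KO columns apart from genes such as HOXA10 (3.8 kb against 1.9 to 2.8 kb).

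Genes that act with or upon HOX genes were counted in the same windows. The 9 TALE cofactors, homeodomain partners of HOX proteins on DNA, were all marked, and 2 of them, PBX3 and PBX4, had all WT values above all KO values. MEIS1 had 6001, 6001 and 3622 bp in WT and 3655, 3720 and 3744 bp in KO. All 9 trithorax-group genes and all 17 Polycomb-group genes were marked as well, with separation in 4 and 11 genes. Over all protein-coding promoters 66.9% were marked, and 50.8% of those with a peak in at least 1 library were separated, so these counts were not read as particular to the lists. CBX8, a Polycomb subunit that reads histone H3 methylation, had 6001, 6001 and 2461 bp in WT and 2176, 1977 and 1495 bp in KO, and KMT2A had 5334, 5312 and 3244 bp in WT and 3456, 3071 and 3107 bp in KO. KO libraries did not exceed all WT libraries at any gene of these lists.

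The ParaHox and EVX genes, homeobox relatives of the HOX clusters, were marked in 5 of 8 cases. CDX2, an intestinal factor, had 3049, 4094 and 1928 bp in WT and 1884, 1688 and 1333 bp in KO, without overlap. EVX2, next to HOXD13, had 1345, 2012 and 1151 bp in WT and 1131, 900 and 697 bp in KO, and so carried the mark in all 6 libraries beside a bare HOXD13. EVX1, beyond HOXA13, had 878 bp in KO replicate 1 alone. Of 11 genes flanking the clusters 7 were marked, 1 mixed and 3 bare, the bare ones being SKAP1 and SKAP2, which flank HOXB and HOXA, and PRAC1 beside HOXB13. Near another annotated 5′ end SKAP2 had a peak in 6 libraries and SKAP1 in 1, and PRAC1 in none.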

How the data were processed

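Libraries of H3K4me3 ChIP-seq from U2OS clones were assigned to WT or KO from their titles. Per the study's methods and processing notes, the authors used Trimmomatic, then Bowtie2 2.3.5.1 against GRCh38, discarded duplicates and reads mapping to several places, and ran MACS2 2.1.1.2 on each library in its broad mode. Whether an input was given to the caller is not given in the sources used here. Deposited columns were a score (the caller's display value, not used), a fold enrichment ratio over local background, and −log10 p and −log10 q, each averaged over a broad peak by the authors' caller. These values served only to filter or describe peaks within a list.

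Autosomal, X and Y peaks entered, and 18 to 54 per list on other sequences did not. Positions are 1-based on GRCh38. Covered length was the bp under peaks within 3 kb of a 5′ end (MANE Select, GENCODE release 44, or else the canonical transcript), and a gene was called from 1 bp. A span ran 3 kb beyond the outermost listed genes. Differences are WT minus KO, tested two-sided by exact permutation over 20 assignments and adjusted over the 8 tests by Benjamini-Hochberg. The members, lists and rules were chosen with earlier results of these data known. Of 39 genes matching the rule, 1 is not reported here. All 38 members are named or counted, other lists by counts and examples. Scripts ran in Python 3.11.15 with numpy 2.4.6 and matplotlib 3.10.9 and were tested on simulated lists.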

Additional observations from a re-analysis of the deposited data

How the results depend on the processing

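The results were recomputed with weaker peaks removed (−log10 q under 3, or fold enrichment under 4), with lists cut to the 21712 peaks of the shortest, with peaks up to 1000 bp apart merged, with a 1 kb window, any annotated 5′ end, a 500 bp overlap, gene bodies without the added 3 kb, a replicate block, each library left out, and, added after seeing the data, WT replicate 3 against the 3 KO libraries. The 1 kb window and the choice of 5′ end applied to the promoter results, the 500 bp overlap to genes called, and the gene bodies to the cluster results. Wherever a tested difference was recomputed it kept WT above KO, and none could reach a p under 0.05. The number of HOX genes in which every WT library exceeded every KO library was 13, but 5 at a fold enrichment of at least 4, and 13 to 27 when 1 library was left out (27 without WT replicate 3 and 21 without KO replicate 1). The share over all promoters was not computed at these changed settings. At a fold enrichment of at least 4 the difference in HOX genes called was 5.67 in place of 2, with an exact permutation p of 0.4, and WT and KO were no longer fully separated in any of the 5 tested results where they had been: the exact permutation p went from 0.1 to 0.4 for mean covered length and for the 4 spans, to 0.3 for HOXA and HOXD and to 0.2 for HOXC. At that setting the difference in share of covered length was 0.0555 in place of 0.0255 percentage points, and that in the HOXC cluster 24.3 in place of 13.5 kb. The cut at 4 fell unequally on the lists. It lay near the median fold enrichment of the HOX peaks in WT replicate 3 and the KO lists (3.85 to 4.19). In WT replicates 1 and 2 that median was 16.1 and 17.4, far above the cut. Other settings moved the other way. With lists cut to an equal number of peaks, the exact permutation p went from 0.2 to 0.1 for the share of covered length and for HOXB. All WT values then lay above all KO values. With −log10 q of at least 3 the same held for HOXB, and the exact permutation p of the share stayed at 0.2. The difference in mean covered length was 784 bp with the 3 kb window and 237 bp with the 1 kb window, where less can be covered. Replicate numbers shared no culture or batch in the labels, and same-numbered libraries deviated together with correlations of -0.00952, 0.0171 and 0.0932 across promoters. With WT replicate 3 as the only WT library, the difference over the 4 spans was 12.2 in place of 50.1 kb. With the replicate block the 784 bp difference had an exact sign-flip p of 0.25, the smallest that 3 pairs allow. Depth is unknown in these lists, so an uncalled peak sets no upper limit on the mark.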
